A study of Mus musculus with 4 samples.

Results

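The Myc, Max and Mxd network is a family of basic helix-loop-helix leucine zipper transcription factors, and its genes were followed here by their symbols in a table of retinal RNA counts. The members are Myc, Mycn, Mycl, Max, Mxd1, Mxd3, Mxd4, Mxi1, Mnt and Mlx. All 10 were found among 18471 genes, and all 10 had enough counts to be tested. They were taken by name as a family, because Foxn3 has been linked to repression of Myc, with earlier results of these data known.

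The libraries came from the retinas of mouse embryos at embryonic day 19, each from an individual genotyped embryo. The wild-type group has 2 libraries. The group labelled Foxn3KO also has 2, with genotype Foxn3-/-, from the line C57BL/6NJ-Foxn3em1(IMPC)Bay/Mmnc, in which exon 3 of the forkhead factor gene Foxn3 is deleted. No treatment and no tissue-specific driver is given in the labels, and the whole retina was taken, so in these bulk samples fewer cells of a type and less RNA per cell cannot be told apart.

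Myc, Mycn and Mycl encode the activating proteins of the network. Each pairs with Max and binds the E-box CACGTG at genes for cell growth and ribosome production, and Mycn is known for its part in the growth of retinal progenitors. Mxd1, Mxd3, Mxd4, Mxi1 and Mnt also pair with Max, occupy the same sites and bring in Sin3 corepressors. Mlx is a second partner, which joins some of these repressors and the glucose-responsive factors Mlxip and Mlxipl.

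Stretches from the 250 bases before the transcription start are shown for 5 members. Each holds the E-box that the network's own proteins bind or a looser form of it. Mxi1 also held the looser form and is not shown. They were matched by symbol in the promoter table of RefSeq (GRCm38.p6), which gave 11 windows for 9 of the members. Myc was not matched. The stretches leave out annotated exons, and they run 5′ to 3′ on the strand of the gene. The first pair is Mycl (chr4:122995812-122995930, plus strand) and Mycn (chr12:12941915-12942086, minus strand), with matches to CANNTG in capitals. They begin 119 and 250 bases before the start and end 1 and 79 bases before it. Of these paralogs, Mycl passed the test and Mycn did not.
Mycl: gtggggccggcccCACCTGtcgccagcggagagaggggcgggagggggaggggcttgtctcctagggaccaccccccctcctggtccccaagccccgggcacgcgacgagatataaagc
Mycn: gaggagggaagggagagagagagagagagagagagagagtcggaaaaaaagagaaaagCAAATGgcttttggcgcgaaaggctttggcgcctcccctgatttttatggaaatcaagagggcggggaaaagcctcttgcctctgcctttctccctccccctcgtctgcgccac
The other 3 are Mxd4 (chr5:34187897-34187956, minus strand), Mnt (chr11:74830774-74830833, plus strand) and Mlx (chr11:101087223-101087276, plus strand), with CACGTG in capitals. The first base of the match lies 219, 123 and 40 bases before the start, in that order.
Mxd4: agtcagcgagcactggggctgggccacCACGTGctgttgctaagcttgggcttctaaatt
Mnt: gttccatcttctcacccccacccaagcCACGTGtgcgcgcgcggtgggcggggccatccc
Mlx: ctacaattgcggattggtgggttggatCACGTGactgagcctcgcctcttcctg

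In the 250 bases before the start, CACGTG, which reads the same on both strands, was present for Mxd4, Mnt and Mlx, in 3 of the 11 windows of members and in 6.02% of all 32851 windows. Its looser form CANNTG, which includes every CACGTG, was present in 7 of the 11 windows and in 66.2% of all windows. The forkhead motif GTAAACA, searched on both strands, was found in a window of Mxi1 and in 3.17% of all windows. A shorter motif bound by some forkhead factors, GACGC on either strand, was found for Max, Mnt and Mxd4 and in 22.6% of all windows. These matches describe letters in a window and were not tested for binding.

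Total counts ranged from 22543531 to 29360129 per library. The counts of Foxn3 itself were 2421 and 2712 for wild-type and 4181 and 3219 for the libraries labelled Foxn3KO, a log2 fold change of 0.54 (edgeR adjusted p = 7.80e-08). Gene-level counts do not resolve exon 3. Foxn3 therefore went against the label Foxn3KO at the level of the gene, and every direction below rests on the labels. Wild-type replicate 1 stood apart from the other libraries. It had 83073 counts of Xist and 0 of Ddx3y, while the others had 9 to 19 of Xist and 1780 to 2317 of Ddx3y. Xist is expressed in females and Ddx3y lies on the Y chromosome, so wild-type replicate 1 appears female and the other libraries male. Sex was therefore not balanced between the groups, and its part in the results below was not tested. Markers of the retina were present in every library, and levels are given as CPM (counts scaled to library depth). Genes were called at an edgeR adjusted p under 0.05, which called 12.3% of all tested genes higher and 9.66% lower. Progenitor genes summed to 5515 and 5838 CPM in wild-type and 5304 and 5321 CPM in the libraries labelled Foxn3KO, with 3 called higher and 2 lower of 9. Photoreceptor precursor genes summed to 1293 and 1279 CPM against 1365 and 1361 CPM, with 5 called higher and 0 lower of 10. Amacrine and horizontal cell genes summed to 648 and 686 CPM against 661 and 645 CPM, with 0 called higher and 4 lower of 9. Lens markers, from tissue beside the retina, summed to 5.44 and 63.7 CPM in the wild-type libraries and to 249 and 247 CPM in those labelled Foxn3KO. Of their 9 tested genes 8 were called higher, and Crygs was at 0 in wild-type replicate 1. Retinal pigment epithelium markers summed to 85.7 and 113 CPM against 70.2 and 71.3 CPM, with 3 called lower and 0 higher of 7 tested. The part of these cell types and neighbouring tissues in the results below was not tested.

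Levels per gene length placed Mycn and Mycl above the other 8 members. In the deposited FPKM values (fragments per kilobase of gene, scaled to depth), Mycn had 35.95 and 34.8 in the wild-type libraries and 36.8 and 37.9 in those labelled Foxn3KO. Mycl followed with 30.6 and 30.9 in wild-type and 27.2 in both libraries labelled Foxn3KO. Max, the partner that most of these proteins need, came after them with 19.2 in both wild-type libraries and 20.7 and 20.9 in the others. Mxd3, Mnt, Mxi1 and Mlx came next, with wild-type means of 14.8, 14.7, 14.6 and 12.9 FPKM, and over the 4 libraries each overlapped its neighbour in that order. Mxd4 lay below them at 9.98 to 10.5 FPKM and Mxd1 at 5.16 to 5.44 FPKM. Myc was the lowest member, at 2.41 to 3.43 FPKM, so Mycn stood 10.2 to 14.9 times above it within a library.

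**Figure D1:**
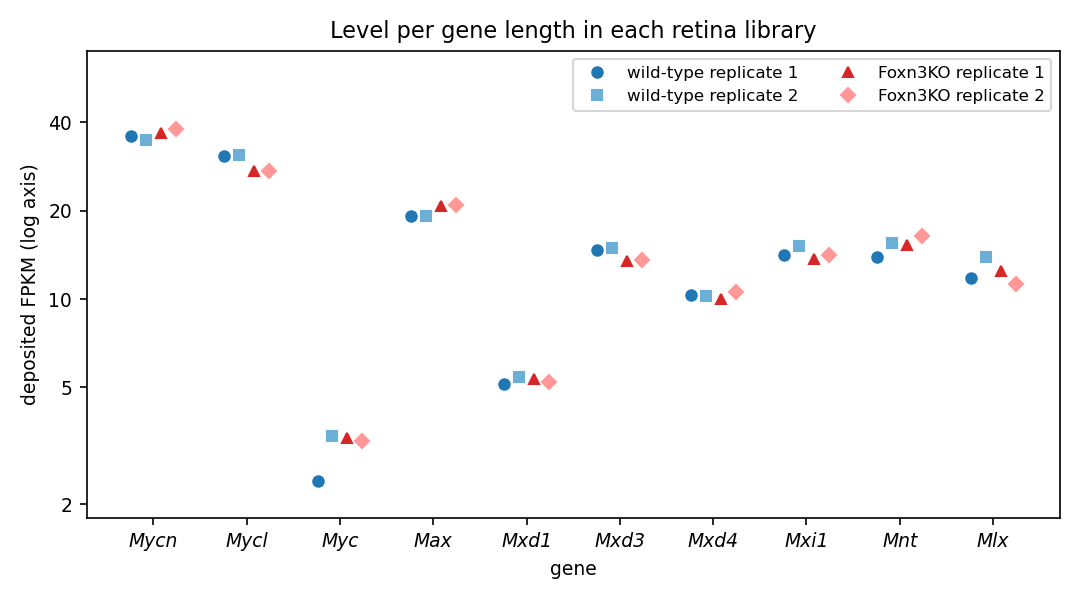
Deposited FPKM (log axis) of the 10 members in each of the 4 libraries, 1 point per library, with wild-type in blue and Foxn3KO in red. Mycn and Mycl lie between 27.2 and 37.9 FPKM and Myc between 2.41 and 3.43 FPKM.

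Of the 10 members, 1 was called between the genotypes: Mycl, which was lower in the libraries labelled Foxn3KO. A gene was called when its adjusted p was under 0.05 (edgeR quasi-likelihood test with Benjamini-Hochberg adjustment over 17300 genes). By this rule 21.9% of all tested genes were called, 12.3% higher and 9.66% lower. No member was called higher; 2 of the 10 had an unadjusted p under 0.05, Mycl and Max, against 33.5% of all tested genes. The members' log2 fold changes ran from -0.18 to 0.19, with a median of -0.0064 beside -0.0047 over all tested genes. Without wild-type replicate 1 that median was -0.039, beside 0.00089 over all tested genes. Without wild-type replicate 2 it was 0.020, beside -0.0032. The CPM values of the 2 groups did not overlap for 5 members, against 60.4% of all tested genes. DESeq2 called the same member, with 16.0% of its tested genes called, and so did limma-voom.

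**Figure D2:**
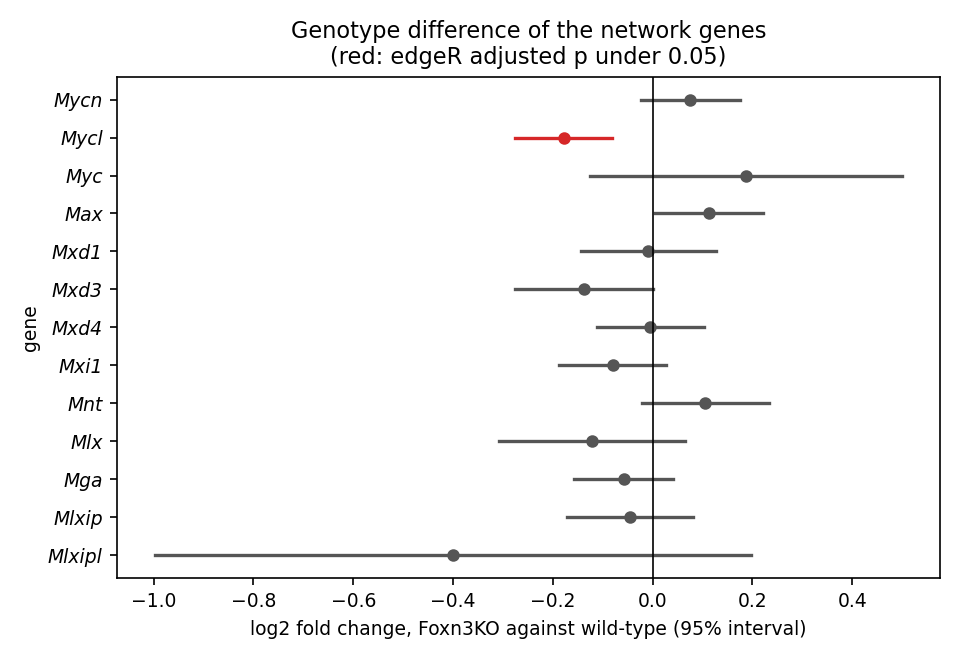
Log2 fold change between the libraries labelled Foxn3KO and wild-type (points) with its 95% interval (lines) for the 10 members and the related genes Mga, Mlxip and Mlxipl. Mycl (red) is the gene that passed the threshold, at -0.18, and the intervals of Myc and Mlxipl are the widest of the 13 genes shown.

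Mycl encodes L-Myc, the Myc protein with the weakest transforming activity. Its counts were 3077 and 3402 for wild-type and 3210 and 2465 for the libraries labelled Foxn3KO. Scaled to depth this was 124 and 125 CPM against 110.2 and 110.1 CPM. The groups did not overlap, and the libraries within a group differed by at most 1.01-fold. Mycl fell by 0.18 on the log2 scale (SE 0.046, edgeR adjusted p = 0.00927), or by 11.6% with a 95% interval from -17.4% to -5.49%. DESeq2 gave an adjusted p of 0.0284, as did the authors' deposited table, where the shrunken log2 fold change was -0.17. Without Foxn3KO replicate 1 the value was -0.18 and the call was lost (edgeR adjusted p = 0.124), and without Foxn3KO replicate 2 it was -0.17 (edgeR adjusted p = 0.131); with 1 library left in a group, that library is assumed to vary like the others. Without wild-type replicate 1 the log2 fold change of Mycl was -0.18.

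Mycn encodes N-Myc, the Myc protein of proliferating neural progenitors. It had 2952 and 3128 counts in wild-type and 3544 and 2801 in the libraries labelled Foxn3KO, which is 119 and 115 CPM against 122 and 125 CPM. Both libraries labelled Foxn3KO were above both wild-type libraries, by a margin smaller than the difference between the wild-type libraries. The log2 fold change of 0.076 (SE 0.047) did not pass (edgeR adjusted p = 0.282), and its interval allowed a change between -1.6% and 12.9%. Because Mycl and Mycn differed in sign, the ratio of Mycn to Mycl FPKM was 1.18 and 1.13 in wild-type and 1.35 and 1.39 in the libraries labelled Foxn3KO. Summed markers of cycling cells, in which Mycn acts, were 2931 and 2818 CPM in wild-type against 2753 and 2756 CPM, with 1 gene called higher and 2 lower of 8. Their part in the Mycl and Mycn values was not tested.

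Myc encodes c-Myc, the member for which a link to Foxn3 has been described. It had 163 and 254 counts in wild-type and 268 and 201 in the libraries labelled Foxn3KO, or 6.57 and 9.35 CPM against 9.2 and 8.98 CPM. Wild-type replicate 1 was below the other 3 libraries, while wild-type replicate 2 was above both libraries labelled Foxn3KO, so the groups overlapped. The log2 fold change was 0.19 (SE 0.15, edgeR adjusted p = 0.414), with an interval from -8.4% to 41.5%. The value was decided by which wild-type library was used. Without wild-type replicate 1 it was -0.037, and without wild-type replicate 2 it was 0.47. With 1 wild-type library left, the spread within wild-type is not measured. Without wild-type replicate 2 the library left is the one with high Xist, so genotype and sex cannot be told apart there. Without wild-type replicate 1 the libraries left all appear male. The 2 wild-type libraries differed by 1.42-fold in Myc, the largest such ratio among the members. They also differed in Xist, and so apparently in sex, and in lens markers. The part of sex and of lens tissue in this difference was not tested. With all 4 libraries a rise of Myc larger than 41.5% lies outside the interval of the main edgeR fit, whose upper limit is 0.50 on the log2 scale. Under other settings with all 4 libraries that limit ran from 0.48 (total count scaling) to 0.59 (DESeq2). It was 0.52 under limma-voom, and under RLE factors it was nearly that of the main fit. A larger rise is therefore not excluded by DESeq2 or limma-voom.

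**Figure D3:**
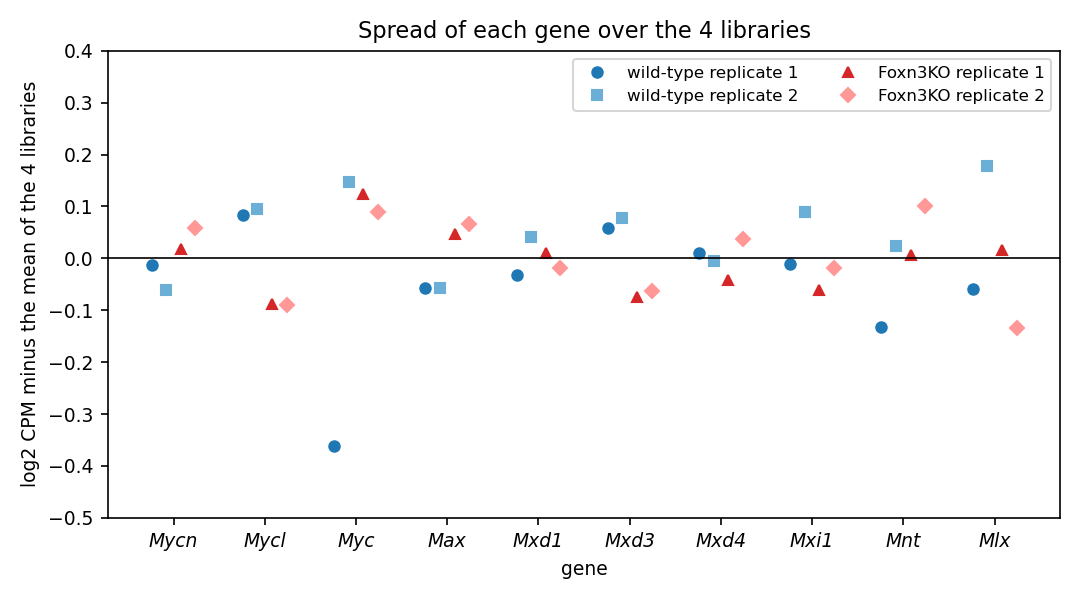
Log2 CPM of each member in each library minus that gene's mean over the 4 libraries, with wild-type in blue and Foxn3KO in red. The 2 wild-type and the 2 Foxn3KO points of Mycl lie apart with little spread, while for Myc wild-type replicate 1 lies below the other 3 libraries.

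Max, the shared partner, had 69.3 CPM in both wild-type libraries and 74.5 and 75.5 CPM in those labelled Foxn3KO. The groups did not overlap and the log2 fold change was 0.11 (SE 0.051). Its unadjusted p of 0.0406 did not hold over all tested genes (edgeR adjusted p = 0.128), and the 95% interval ran from 0.38% to 16.6%. Max lies on chromosome 12, as do Mycn and Foxn3, and any part of this shared location in their values was not tested.

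The 4 Mxd genes encode repressors. Several of them are known to rise as cells leave the cycle, while Mxd3 is known from cycling cells. None of the 4 passed the threshold by edgeR, none had an unadjusted p under 0.05, and DESeq2 and limma-voom also called 0. Mxd3 had 34.96 and 35.4 CPM in wild-type and 31.9 and 32.1 CPM in the libraries labelled Foxn3KO, without overlap (log2 fold change -0.14, SE 0.066, edgeR adjusted p = 0.154). Its gene model overlaps Prelid1 on the opposite strand, and whether the counting used strand is not given, so reads of the 2 genes may be mixed. Mxi1 had 96.9 and 104 CPM against 93.5 and 96.3 CPM, a log2 fold change of -0.080 (edgeR adjusted p = 0.296). Without wild-type replicate 1 the value was -0.13, and without wild-type replicate 2 it was -0.031.

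Mxd1 and Mxd4 had the smallest differences of all members. Mxd1 had 36.7 and 38.6 CPM in wild-type and 37.8 and 37.0 CPM in the libraries labelled Foxn3KO, with an interval from -9.5% to 9.2%. Mxd4 had 87.9 and 87.0 CPM against 84.9 and 89.6 CPM, with an interval from -7.4% to 7.4%. For both genes the groups overlapped, and the sign of the log2 fold change (-0.0084 and -0.0043) turned when single libraries were left out.

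Mnt, a repressor that is present in most cells whether or not they divide, had 64.6 and 71.96 CPM in wild-type and 71.1 and 75.9 CPM in the libraries labelled Foxn3KO. The groups overlapped, and the log2 fold change of 0.11 (SE 0.060) did not pass (edgeR adjusted p = 0.238). Wild-type replicate 1 was again the lowest library: without it the value was 0.028, and without wild-type replicate 2 it was 0.18.

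Mlx had 23.7 and 27.9 CPM in wild-type and 24.97 and 22.5 CPM in the libraries labelled Foxn3KO, with overlap and a log2 fold change of -0.12 (SE 0.088, edgeR adjusted p = 0.373). Without wild-type replicate 1 it was -0.23, and without wild-type replicate 2 it was 0.010. The Mlx gene model overlaps Psmc3ip on the opposite strand, which was called higher at a log2 fold change of 0.36 (edgeR adjusted p = 0.0025), so the Mlx value is uncertain if strand was not used.

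Summed per gene length, the Myc genes had 68.9 and 69.2 FPKM in wild-type and 67.4 and 68.3 FPKM in the libraries labelled Foxn3KO. Mycn made up 52.2% and 50.4% of that sum in wild-type and 54.6% and 55.4% in the libraries labelled Foxn3KO, and Mycl 44.4% and 44.7% against 40.4% and 39.8%. Myc made up 3.49% to 5.01% in the 4 libraries. The Mxd genes summed to 44.3 and 45.7 FPKM against 42.4 and 43.4 FPKM, and the ratio of Myc to Mxd sums was 1.56 and 1.51 against 1.59 and 1.58. With Mnt added to the Mxd genes the ratio was 1.19 and 1.13 against 1.17 and 1.14, where the groups overlapped. With 2 libraries in a group these sums were not tested.

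Further genes of the network were Mga, Mlxip and Mlxipl, and none of these 3 was called. Mga, a large Max partner, had a log2 fold change of -0.058 (SE 0.047), and Mlxip, the Mlx partner also called MondoA, had -0.045 (SE 0.060). Mlxipl, also called ChREBP, was scarce at 29 to 54 counts, and its value of -0.40 had an SE of 0.28. Their edgeR adjusted p-values were 0.423, 0.649 and 0.354, none had an unadjusted p under 0.05, and DESeq2 and limma-voom called 0.

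By likeness over the 4 libraries (the Euclidean distance between centred log2 CPM profiles, among 10832 genes whose mean was 10 CPM or more), the 3 genes nearest to Mycl were Gltp, Gm57390 and Pde5a, at distances of 0.0049 to 0.0094. For Mycn they were Bmerb1, Slc18b1 and Serping1, at 0.0069 to 0.014, and for Myc they were Tubb4a, Astn2 and Amer3, at 0.058 to 0.11. With 4 libraries such distances describe these samples only.

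The cofactors of the network were examined next. By edgeR 21.9% of all tested genes were called, and 33.5% had an unadjusted p under 0.05. The 17 subunits of the Sin3 and NCoR corepressors, which the Mxd proteins and Mnt recruit, gave 0 of each. DESeq2 and limma-voom also called 0 of these subunits. Their median log2 fold change was 0.0017. Some were called without wild-type replicate 1, in both directions, where more of all tested genes were called too. Of 13 Myc coactivators and partners, 3 rose and 0 fell, with a median of 0.079. The share that rose was 23.1%, beside 12.3% of all tested genes that rose and 21.9% called in either direction. The 3 that rose were Ruvbl1 and Ruvbl2, the ATPases of the TIP60 and INO80 chromatin complexes, and Cdk9, the kinase that releases paused RNA polymerase. Ruvbl1 rose from 47.9 and 46.3 CPM to 65.7 and 64.1 CPM (log2 fold change 0.46, edgeR adjusted p = 7.75e-06), and Ruvbl2 from 123 and 121 CPM to 156 and 149 CPM (0.33, edgeR adjusted p = 4.78e-05). Cdk9 rose by 0.17 (edgeR adjusted p = 0.0168). This list gave more calls without either wild-type library and fewer without either library labelled Foxn3KO, as did all tested genes. Ruvbl2 overlaps Gys1 on the opposite strand, which was not called (edgeR adjusted p = 0.274).

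Of 11 genes for the turnover of Myc protein, 3 were called: Ppp2ca, a phosphatase subunit, and Stub1, a ubiquitin ligase, rose by 0.12 and 0.14 (edgeR adjusted p = 0.0421 and 0.0446), and Skp2, a subunit of a ubiquitin ligase that also drives entry into S phase, fell by 0.17 (edgeR adjusted p = 0.0198). That is 27.3% beside 21.9% of all tested genes, with a median of 0.031. DESeq2 called 0 of the 11, beside 16.0% of its tested genes, and total count scaling called 0 higher and 3 lower. The calls of this list were lost without either library labelled Foxn3KO, where fewer of all tested genes were called too. More were called without wild-type replicate 1, in both directions, and more of all tested genes as well. Skp2 overlaps Lmbrd2 on the opposite strand, which was called lower at -0.28 (edgeR adjusted p = 0.00164), and Stub1 overlaps Jmjd8, so their reads may be mixed if strand was not used.

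Of 58 genes commonly listed as activated by Myc, all tested, 17 rose in the libraries labelled Foxn3KO and 1 fell. The share that rose was 29.3%, beside 12.3% of all tested genes, and 44 of the 58 values were positive. The median log2 fold change was 0.081, beside -0.0047 over all tested genes. Rrp12, a factor of ribosomal subunit export, had 25.8 and 30.4 CPM in wild-type and 54.8 and 52.5 CPM in the libraries labelled Foxn3KO (log2 fold change 0.93, SE 0.074, edgeR adjusted p = 3.14e-08). Odc1, the first enzyme of polyamine synthesis and a much used Myc target, rose from 353 and 331 CPM to 478 and 463 CPM (0.46, edgeR adjusted p = 2.91e-07). Odc1 lies on chromosome 12, as does Foxn3, and any part of this shared location in its value was not tested. Ccnd2, a cyclin of the entry into S phase, rose from 19.6 and 17.3 CPM to 27.2 and 25.7 CPM (0.52, edgeR adjusted p = 0.000209). In each of these genes both libraries labelled Foxn3KO were above both wild-type libraries. They were named for their small p, which favours such a separation, and 60.4% of all tested genes did not overlap in either direction. The call that fell was Tmem97, a sterol-regulated membrane protein, at -0.24 (edgeR adjusted p = 0.0123), which did not pass in DESeq2 (adjusted p = 0.0734).

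The remaining 14 calls that rose lay between 0.13 and 0.37 on the log2 scale. DESeq2 called 11 of the 58, all higher, and total count scaling gave 14 higher and 2 lower. The list gave fewer calls without either library labelled Foxn3KO and more without either wild-type library. The same held for all tested genes. Some of the calls without a wild-type library were lower. With 1 library left in a group, such calls rest on an assumed spread. The list was written with earlier results of these data known, and no test compared it with other genes.

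**Figure D4:**
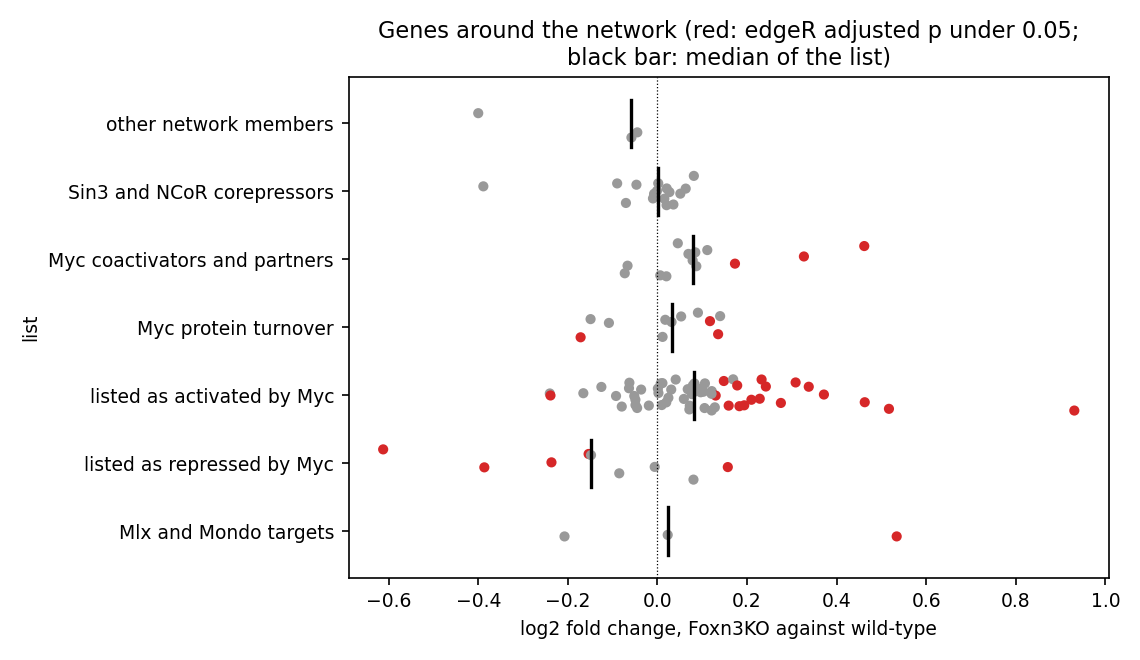
Log2 fold change between the libraries labelled Foxn3KO and wild-type for each tested gene (points) of 7 lists around the network, with genes past the threshold in red and the median of each list as a black bar. The list of genes commonly given as activated by Myc has 17 red points above 0 and 1 below, and Rrp12 lies at 0.93.

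Of 10 genes commonly listed as repressed by Myc, 9 were tested, 4 fell and 1 rose. The share that fell was 44.4%, beside 9.66% of all tested genes, and the median was -0.15. Cdkn1b, the cyclin-dependent kinase inhibitor p27, fell from 214 and 201 CPM to 174 and 178 CPM (log2 fold change -0.24, edgeR adjusted p = 0.000979). Ndrg2, a gene linked to differentiation, fell from 37.3 and 37.4 CPM to 29.3 and 27.8 CPM (-0.39, edgeR adjusted p = 0.000382), and Btg1, an antiproliferative gene, fell by 0.15 (edgeR adjusted p = 0.0129). The fourth was Thbs1, a matrix protein named after its values were seen, with 5.44 and 9.09 CPM in wild-type and 4.16 and 5.49 CPM in the libraries labelled Foxn3KO. Its groups overlapped, its log2 fold change was -0.61 (edgeR adjusted p = 0.0422), and it did not pass in DESeq2 (adjusted p = 0.117). Ndrg1, a stress-responsive gene, rose by 0.16 (edgeR adjusted p = 0.019). Fewer genes of this list were called without either library labelled Foxn3KO, and fewer of all tested genes as well.

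Of 3 genes known to respond to Mlx with Mlxip or Mlxipl, Arrdc4 rose from 9.23 and 8.1 CPM to 11.95 and 13.2 CPM (log2 fold change 0.53, edgeR adjusted p = 0.0029). Txnip, the best known of them, did not pass (0.023, edgeR adjusted p = 0.843), and neither did Klf10 (-0.21, edgeR adjusted p = 0.0839).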

How the data were processed

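Retinal RNA from 2 wild-type and 2 Foxn3KO embryos was measured by strand-specific RNA sequencing, per the labels. The authors deposited 1 table with whole-number counts per gene and library, and FPKM values, which equalled the counts times a constant per library and gene to a relative difference of 1.21e-07. It also holds the authors' signal column (a mean of normalized counts), their log2 fold changes with another column of standard errors, and their p-values and adjusted p-values. The submitters' processing notes name DESeq2 and build mm39; the aligner, the counting tool, the annotation and whether strand and molecular identifiers were used are not given in the sources used here.

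The counts were filtered with filterByExpr (17300 of 18471 genes kept), scaled by TMM and compared between genotypes in R 4.3.3 by the two-sided quasi-likelihood F test of edgeR 4.0.16 (the fit new to its version 4, no covariate), adjusted by Benjamini-Hochberg, at a threshold of 0.05. A repeated gene identifier was dropped. CPM is on the TMM-adjusted library size, on which 3 counts are 0.103 to 0.134 CPM; this covers counting error only. Standard errors and 95% intervals came from the F statistic and its degrees of freedom. The procedure was run on simulated data in which both groups had the same spread for a gene. That run therefore does not cover the unequal spread of the replicates given below.

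Replicates differed by more than sampling noise: chi-square per gene averaged 10.02 within wild-type and 1.89 within Foxn3KO, where noise alone gives a value near 1. Alternatives were total count scaling, RLE factors, a minimum of 10 counts per library, no filter, limma-voom (limma 3.58.1), DESeq2 1.42.0, the earlier edgeR fit, a replicate block, a threshold of 0.1, and each library left out.

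The members and lists were chosen with earlier results of these data known. Named were Foxn3, the members, Mga, Mlxip, Mlxipl, the 3 called genes with the smallest p per list and direction, and the 3 genes nearest to Myc, Mycn and Mycl. Exon and overlap annotation came from GENCODE M21 (GRCm38), which is not the build of the table, so no gene coordinates are given. Figures were drawn with matplotlib 3.10.9.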

Additional observations from a re-analysis of the deposited data

How the results depend on the processing

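Over 8 changes of scaling, filter, tool or fit, the 10 members gave 80 values, and all kept their direction and their side of the threshold; Mycl was the 1 member called under each, and under an adjusted p of 0.1. DESeq2 called 2437 genes in all against 3795, and 19 of the pathway genes against 30; the cause was not tested. Total count scaling moved the pathway calls from 24 higher and 6 lower to 19 and 10. Leaving out a library gave 2323 to 5067 calls over all genes, 0 to 3 members and 13 to 42 pathway genes, with the 2 lowest counts of each without a library labelled Foxn3KO. Values that changed sign ranged from -0.0369 to 0.470 for Myc, -0.0417 to 0.0305 for Mxd1, -0.0410 to 0.0352 for Mxd4, -0.225 to 0.0100 for Mlx and -0.108 to 0.0148 for Mlxip. Libraries with the same number did not deviate together (correlation of their deviations -0.00825 over 17300 genes); with the replicate block 4222 genes, 34 pathway genes and 1 member were called.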
